A study of Mus musculus with 3 samples.

Results

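The dual-specificity phosphatase genes Dusp1, Dusp2, Dusp4, Dusp5, Dusp6, Dusp8 and Dusp10 were examined together with Spry2, which encodes a feedback inhibitor of the same kinase pathway, and Mapk3, which encodes the MAP kinase ERK1. These 9 genes were found by position. For each gene, the entry of the expression tables whose span matched the gene on GRCm38 was taken, and all 9 entries were alone at their locus among 31930 entries in all. RNA sequencing had been done on 3 libraries of mouse heart fibroblasts, 1 for each group, all from mice of 12 weeks on a C57/BL6 background. FSP1+ fibroblasts were GFP+ cells from infarcted hearts of FSP1-GFP transgenic mice, in which the promoter of FSP1 (gene S100a4) drives GFP, sorted 10 days after myocardial infarction with CD45+ and CD31+ cells gated out. αSMA+ fibroblasts were sorted on GFP alone from infarcted hearts of aSMA-GFP transgenic mice, at the same 10 days, with GFP under the promoter of αSMA (gene Acta2). The uninjured fibroblasts came from hearts of WT mice without infarction and were plated for 4 h before RNA was taken. Cells for each sort came from pooled hearts, so a sorted library stands for a pool and not for an animal. With 1 library per group, no difference has a replicate check, no test was run and no spread can be given, so all values describe these libraries.

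Dual-specificity phosphatases of this kind remove phosphate from both the threonine and the tyrosine that switch a MAP kinase on. Most of their genes are induced by the same kinases that their products turn off, which makes them negative feedback genes. The MAP kinases ERK, JNK and p38 carry growth factor and stress signals in heart fibroblasts as in most cells. Dusp1, Dusp2, Dusp4 and Dusp5 encode nuclear enzymes, of which DUSP5 is selective for ERK. Dusp6 encodes a cytoplasmic enzyme selective for ERK, and Dusp8 and Dusp10 encode enzymes that prefer JNK and p38. Sprouty 2, the product of Spry2, acts higher in the pathway and limits signaling from receptor tyrosine kinases to Ras and ERK.

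The sequence upstream of the start site is shown for 4 of the genes, those with a match to any of the motifs searched. RefSeq promoters on GRCm38.p6 were at hand for 7 of the 9 genes, and the 250 bases before the start were searched for 4 motifs. These were the cAMP response element TGACGTCA, the AP-1 site TGANTCA, the E-box CACGTG and the CArG box, the core of the serum response element. Each motif reads alike on both strands, and no copies overlapped. Capitals mark the matches below, 5′ to 3′ on the strand of the gene.
Dusp1, chr17:26508573-26508632, minus strand: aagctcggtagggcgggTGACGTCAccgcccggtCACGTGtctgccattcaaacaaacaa
Dusp8, chr7:142095325-142095414, minus strand: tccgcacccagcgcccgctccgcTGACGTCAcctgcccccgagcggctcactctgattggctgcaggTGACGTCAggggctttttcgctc
Dusp5, chr19:53529035-53529104, plus strand: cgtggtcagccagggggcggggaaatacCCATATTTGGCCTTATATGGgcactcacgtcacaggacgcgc
Dusp2, chr2:127336029-127336078, plus strand: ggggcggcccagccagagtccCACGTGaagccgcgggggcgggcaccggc

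The Dusp1 window has 1 cAMP response element, at bases −143 to −136 from the start, and 1 E-box. The Dusp8 window has 2 cAMP response elements, at −107 to −100 and −63 to −56. Of 32851 promoter windows of 250 bases before the start, 1.55% hold this element and 10 windows hold at least 2 copies. The Dusp5 window has 2 CArG boxes that abut, at −82 to −73 and −72 to −63, against 1.47% of all windows with at least 1 and 6 windows with at least 2. The Dusp2 window has 1 E-box, as do 6.02% of all windows. None of the 4 motifs was matched before the start of Dusp6, Dusp10 or Spry2, and the AP-1 site, present in 6.75% of all windows, was matched in none of the 7. A match describes the letters and shows no binding.

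Levels are given in FPKM, sequenced fragments per length of transcript and per total of mapped fragments, which can be compared between genes. Each of the 3 tables holds a pair of libraries that was scaled on its own, and the tables of a library differ by a fixed factor (1.15 to 1.19). Each comparison was therefore read from its own table, as the log2 ratio of FPKM with 1 added, over entries that reached 1 FPKM in either library. The number of reads is unknown, so the precision of low levels cannot be given. The label check did not hold in full. S100a4 had an FPKM of 30.8 in the FSP1+-labelled library and 12.0 in the αSMA+-labelled library, but Acta2 had an FPKM of 279.8 in the FSP1+-labelled library and 65.0 in the αSMA+-labelled library, where GFP under the promoter of Acta2 chose the cells. Acta2 was also not above uninjured there, with 77.1 in the αSMA+-labelled library and 95.4 in the uninjured-labelled library, and the same held for the matrix genes Col1a1 (316 in αSMA+ and 2037 in uninjured) and Postn (100.6 in αSMA+ and 593 in uninjured). The sample numbers in the titles and in the descriptions differ for the αSMA+ and uninjured libraries and match for FSP1+. Whether those labels are right cannot be settled here, and each value of αSMA+ or uninjured carries that doubt. Acta2 was also higher in FSP1+ than in uninjured, at 321.3 and 110.0, so exchanging the αSMA+ and uninjured labels would still leave it highest in FSP1+. The check by Acta2 thus leaves doubt on the FSP1+ library as well. The paper reports Col1a1, Col1a2 and Col3a1 as much higher in αSMA+ than in FSP1+ fibroblasts. Here all of these were higher in the FSP1+-labelled library, Col1a1 with 899.5 in FSP1+ and 266 in αSMA+. Libraries are therefore named by their labels, and a direction is one between labels.

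The 9 genes were chosen with earlier results of these data known, so their counts beside those of all entries are not an independent result. Of the 9 genes, 6 reached at least 2-fold higher FPKM in the FSP1+-labelled library than in the uninjured-labelled library, against 14.6% of all 17578 entries measured. In the αSMA+-labelled library, 7 genes reached 2-fold higher than in the uninjured-labelled library, against 17% of 17204 entries. None of the 9 was at least 2-fold lower in either, against 16% and 7.11% of all entries. The libraries of infarcted hearts differed in which genes were high. In the FSP1+-labelled library, 4 genes (Dusp1, Dusp2, Dusp8 and Mapk3) were at least 2-fold higher than in the αSMA+-labelled library, against 19.1% of 16374 entries, and 3 genes (Dusp4, Dusp10 and Spry2) were at least 2-fold lower, against 14.5%. At a 4-fold threshold, 4 of the 9 genes were higher in FSP1+ than in uninjured (5.23% of all entries) and 5 were higher in αSMA+ than in uninjured (5.81%), while none was lower in either (2.36% and 1.62%). Between the infarct libraries none was 4-fold higher in FSP1+ (4.03%) and the same 3 were 4-fold lower (2.98%). These shares depend on scaling. With every library rescaled to the same sum, the median log2 ratio of all entries was −0.18 for FSP1+ over uninjured, −0.47 for αSMA+ over uninjured and 0.17 for FSP1+ over αSMA+, and the shares higher and lower were 12.1% and 23.4% for FSP1+ over uninjured, 10.0% and 21.8% for αSMA+ over uninjured, and 23.5% and 14.4% for FSP1+ over αSMA+. Of the 9 genes, 6 were then higher in FSP1+ and 5 in αSMA+ than in uninjured, none was lower, and 5 were higher and 3 lower in FSP1+ than in αSMA+. Taken through the library that the other tables share, the shares higher and lower were 19.2% and 10.7% for FSP1+ over uninjured, 13.4% and 10.5% for αSMA+ over uninjured, and 15.02% and 21.1% for FSP1+ over αSMA+, with 7, 7 and 4 of the 9 genes higher and 0, 0 and 3 lower. The plot of levels shows the pairs of libraries side by side.

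**Figure D1:**
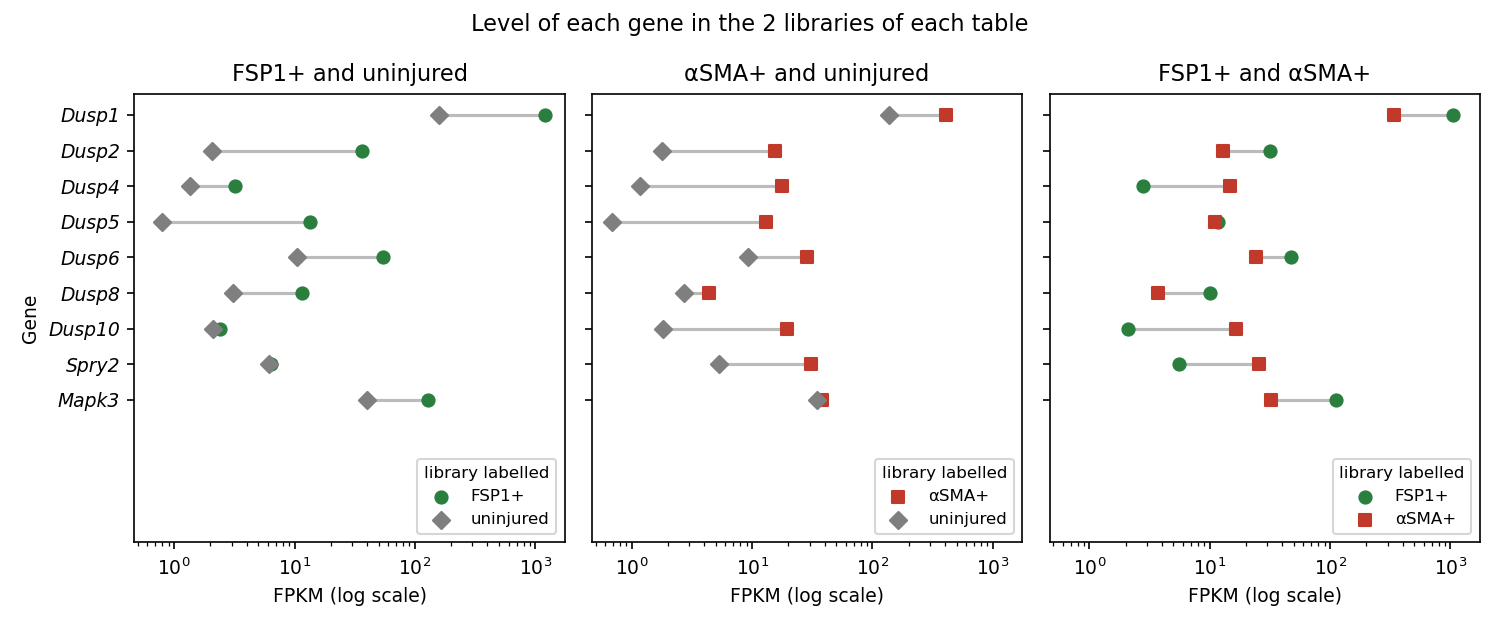
FPKM of the 9 genes on a log axis in the libraries of each table, with circles for the FSP1+-labelled library, squares for αSMA+ and diamonds for uninjured, and a line joining the libraries compared. Dusp1 lies far to the right of all other genes in every library, and the symbols of Dusp4, Dusp10 and Spry2 lie the other way round from those of Dusp1, Dusp2, Dusp8 and Mapk3 in the panel of FSP1+ and αSMA+.

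Dusp1, which encodes the first of the nuclear phosphatases to be induced in most cells and acts on p38, JNK and ERK, was by far the most abundant of the 9. Its entry spans chromosome 17 of GRCm38 from 26505591 to 26508472 on the minus strand, the whole of the gene. Its FPKM was 1204.5 in the FSP1+-labelled library and 159 in the uninjured-labelled library (log2 ratio 2.91). It was 404 in the αSMA+-labelled library and 138 in the uninjured-labelled library (log2 ratio 1.55), and side by side it was 1049 in the FSP1+-labelled library and 341 in the αSMA+-labelled library (log2 ratio 1.62). The order was thus FSP1+, αSMA+ and uninjured. Among 15186 protein coding genes with a symbol, Dusp1 ranked 29 by FPKM in the FSP1+-labelled library, 134 in αSMA+ and 239 in uninjured. With every library rescaled to the same sum, the log2 ratio of αSMA+ over uninjured was 0.92, below 2-fold.

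Dusp2, the nuclear phosphatase gene best known from activated immune cells, had the largest ratio of the 9 in the FSP1+-labelled library over uninjured fibroblasts with 1 FPKM added, but not with 5 FPKM added (log2 ratio 2.55, against 2.88 for Dusp1). It lies on chromosome 2 from 127336159 to 127338377 on the plus strand. Its FPKM was 36.3 in the FSP1+-labelled library and 2.06 in the uninjured-labelled library (log2 ratio 3.61, above 98.3% of all entries). It was 15.4 in the αSMA+-labelled library and 1.78 in the uninjured-labelled library (log2 ratio 2.56). In the table of both infarct libraries it was 31.6 in FSP1+ and 13.0 in αSMA+ (log2 ratio 1.23). Dusp2 thus followed the order of Dusp1 at a lower level.

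Dusp4, whose product is a nuclear phosphatase close to those of Dusp1 and Dusp2, did not follow that order. Its entry covers chromosome 8 from 34807610 to 34819894 on the plus strand. Its FPKM was 17.6 in the αSMA+-labelled library and 1.17 in the uninjured-labelled library (log2 ratio 3.10, above 97.6% of all entries). In the FSP1+-labelled library it was 3.18, against 1.35 in the uninjured-labelled library, which is under 2-fold with 1 added (log2 ratio 0.83). Between the infarct libraries it was 2.77 in FSP1+ and 14.8 in αSMA+ (log2 ratio −2.07). Dusp4 was thus highest in the αSMA+-labelled library. The ratio of FSP1+ over uninjured passed 2-fold with 0.1 FPKM added (log2 ratio 1.18) and with the ratio taken through the αSMA+-labelled library (1.03).

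Dusp5, the gene of the nuclear phosphatase selective for ERK, was high in both infarct libraries and nearly equal in them. It lies on chromosome 19 from 53529318 to 53541322 on the plus strand, where an antisense gene model of GENCODE overlaps it, and the libraries were made with a stranded kit, but whether the counting used strand is not given in the sources used here. Its FPKM was 13.4 in the FSP1+-labelled library and 0.786 in the uninjured-labelled library (log2 ratio 3.01). It was 13.1 in the αSMA+-labelled library and 0.681 in the uninjured-labelled library (log2 ratio 3.07). Side by side it was 11.7 in FSP1+ and 11.1 in αSMA+ (log2 ratio 0.07, or −0.06 through the uninjured-labelled library). Because its uninjured level lies under 1 FPKM, its ratios over uninjured depend on what is added, with 3.93 and 4.09 when 0.1 FPKM was added and 1.67 and 1.68 when 5 FPKM was added, for FSP1+ and αSMA+ in that order.

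Dusp6, the cytoplasmic phosphatase gene selective for ERK, was the second most abundant phosphatase of the 7 in all 3 libraries. It lies on chromosome 10 from 99263231 to 99267489 on the plus strand, where a predicted gene also overlaps. Its FPKM was 54.0 in the FSP1+-labelled library and 10.6 in the uninjured-labelled library (log2 ratio 2.25). It was 28.7 in the αSMA+-labelled library and 9.17 in the uninjured-labelled library (log2 ratio 1.55, or 0.98 with every library rescaled to the same sum). Side by side it was 47.1 in FSP1+ and 24.2 in αSMA+ (log2 ratio 0.93, just inside 2-fold, and 1.08 after the same rescaling). Its order was that of Dusp1.

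Dusp8 and Dusp10 encode phosphatases with the same preference for JNK and p38, and they went opposite ways between the infarct libraries. Dusp8 lies on chromosome 7 from 142079487 to 142095284 on the minus strand, likewise with a predicted gene overlapping. Its FPKM was 11.5 in the FSP1+-labelled library and 3.11 in the uninjured-labelled library (log2 ratio 1.60), and 4.38 in the αSMA+-labelled library against 2.69 in the uninjured-labelled library (log2 ratio 0.54). Side by side it was 9.99 in FSP1+ and 3.69 in αSMA+ (log2 ratio 1.23, or 0.79 with 5 FPKM added). Dusp8 was thus high in the FSP1+-labelled library alone. Dusp10 spans chromosome 1 from 184034461 to 184075636 on the plus strand. Its FPKM was 2.41 in the FSP1+-labelled library and 2.08 in the uninjured-labelled library (log2 ratio 0.14, or −0.015 after the same rescaling), and 19.6 in the αSMA+-labelled library against 1.81 in the uninjured-labelled library (log2 ratio 2.87). Side by side it was 2.10 in FSP1+ and 16.5 in αSMA+, the lowest ratio of the 9 (log2 ratio −2.50, with 2.11% of all entries lower). Dusp10 was high in the αSMA+-labelled library alone. Within a library, where scaling has no part, the FPKM of Dusp10 was 0.210 times that of Dusp8 in FSP1+, 4.47 times in αSMA+ and 0.671 times in uninjured.

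Spry2 was also high in the αSMA+-labelled library alone. Its entry spans chromosome 14 from 105891947 to 105896819 on the minus strand. Its FPKM was 6.34 in the FSP1+-labelled library and 6.13 in the uninjured-labelled library (log2 ratio 0.04, or −0.16 with every library rescaled to the same sum). It was 30.7 in the αSMA+-labelled library and 5.32 in the uninjured-labelled library (log2 ratio 2.33). The table of both infarct libraries gave 5.53 in FSP1+ and 25.9 in αSMA+ (log2 ratio −2.04). Spry2, Dusp4 and Dusp10 were the members below 2-fold in FSP1+ over uninjured, and they were the 3 that were lower in FSP1+ than in αSMA+.

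Mapk3, the gene of the kinase that several of these phosphatases act on, was the second most abundant of the 9. It lies on chromosome 7 from 126759626 to 126765816 on the plus strand. Its FPKM was 128 in the FSP1+-labelled library and 40.1 in the uninjured-labelled library (log2 ratio 1.65). It was 38.1 in the αSMA+-labelled library and 34.7 in the uninjured-labelled library (log2 ratio 0.13, which turned to −0.49 with every library rescaled to the same sum). Side by side it was 111 in FSP1+ and 32.1 in αSMA+, the highest ratio of the 9 (log2 ratio 1.76, above 94.2% of all entries). Mapk3 was thus high in the FSP1+-labelled library alone.

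The make-up of the phosphatase transcripts can be compared across all 3 libraries, since a share within a library does not depend on scaling. Dusp1 made up 90.9% of the summed FPKM of the 7 phosphatase genes in the FSP1+-labelled library, 80.4% in αSMA+ and 88.9% in uninjured. The other 6 genes together made up 9.12% in FSP1+, 19.6% in αSMA+ and 11.1% in uninjured. Dusp10 took 0.182% in FSP1+, 3.89% in αSMA+ and 1.16% in uninjured, and Dusp4 took 0.240% in FSP1+, 3.49% in αSMA+ and 0.752% in uninjured. Both were lowest in share in the FSP1+-labelled library, though their deposited FPKM there was not below that of uninjured fibroblasts. Dusp5 took 1.01% in FSP1+, 2.61% in αSMA+ and 0.439% in uninjured, and Dusp2 took 2.74% in FSP1+, 3.05% in αSMA+ and 1.15% in uninjured. Dusp8 had the largest share in uninjured fibroblasts, with 0.865% in FSP1+, 0.869% in αSMA+ and 1.74% in uninjured. Its FPKM was higher in FSP1+ (11.5) than in uninjured (3.11) all the same, since a share also falls when Dusp1 rises. Dusp6 held 4.08% in FSP1+, 5.71% in αSMA+ and 5.91% in uninjured.

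**Figure D2:**
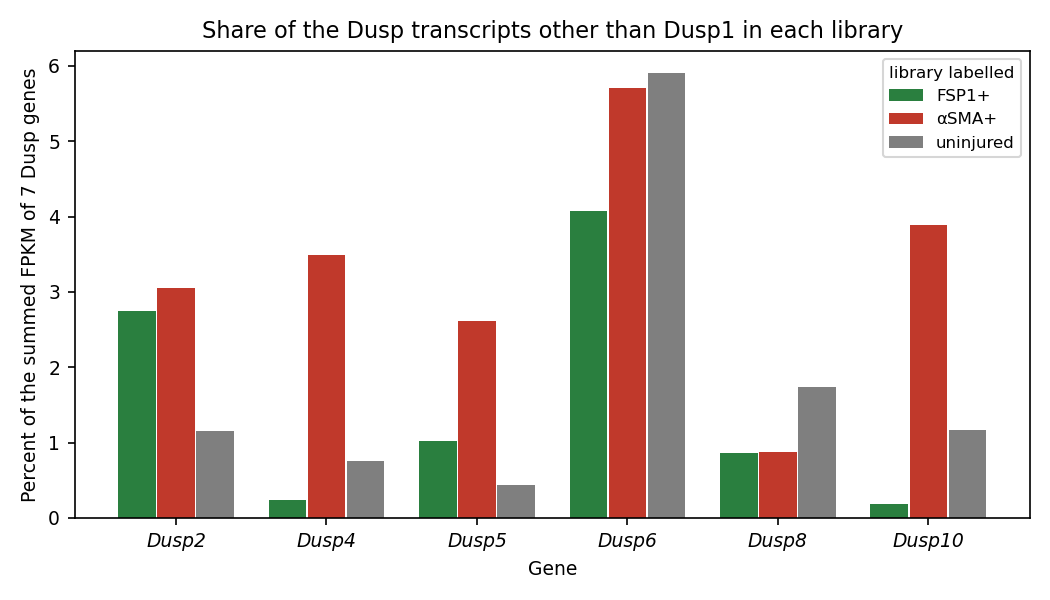
Share of each phosphatase gene other than Dusp1 in the summed FPKM of the 7 genes, in percent, with a bar for each library. Dusp4 and Dusp10 have a share of 3.49% and 3.89% in the αSMA+-labelled library and of 0.240% and 0.182% in the FSP1+-labelled library.

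The order of levels also changed between libraries. In the FSP1+-labelled library, the order after Dusp1 was Mapk3, Dusp6, Dusp2, Dusp5, Dusp8, Spry2, Dusp4 and Dusp10. In αSMA+ it was Mapk3, Spry2, Dusp6, Dusp10, Dusp4, Dusp2, Dusp5 and Dusp8. In uninjured fibroblasts it was Mapk3, Dusp6, Spry2, Dusp8, Dusp10, Dusp2, Dusp4 and Dusp5. Whether neighbours in an order differ beyond replicate error cannot be said, and Dusp10 and Dusp2 in uninjured fibroblasts were only 2.08 and 2.06 FPKM. By rank among protein coding genes, Dusp10 stood at percentile 48.3 in FSP1+, 81.7 in αSMA+ and 43.5 in uninjured, and Dusp5 at 74.3 in FSP1+, 76.2 in αSMA+ and 29.2 in uninjured.

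The median log2 ratio of the 9 genes was 1.65 for FSP1+ over uninjured, against 0.02 over all entries measured. It was 2.33 for αSMA+ over uninjured, against 0.05 over all entries. For FSP1+ over αSMA+ it was 0.93, against 0.04, with members from −2.50 to 1.76. The comparisons share libraries, so they are not independent of each other. Because the 9 genes were chosen with earlier results of these data known, their medians are not an independent result either. With 1 FPKM added, Dusp2 was 12.2-fold higher in FSP1+ than in uninjured, and in αSMA+ over uninjured Dusp4 was 8.56-fold and Dusp5 8.42-fold higher, an order that turned round with 0.1 FPKM added, after rescaling and through the FSP1+-labelled library.

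**Figure D3:**
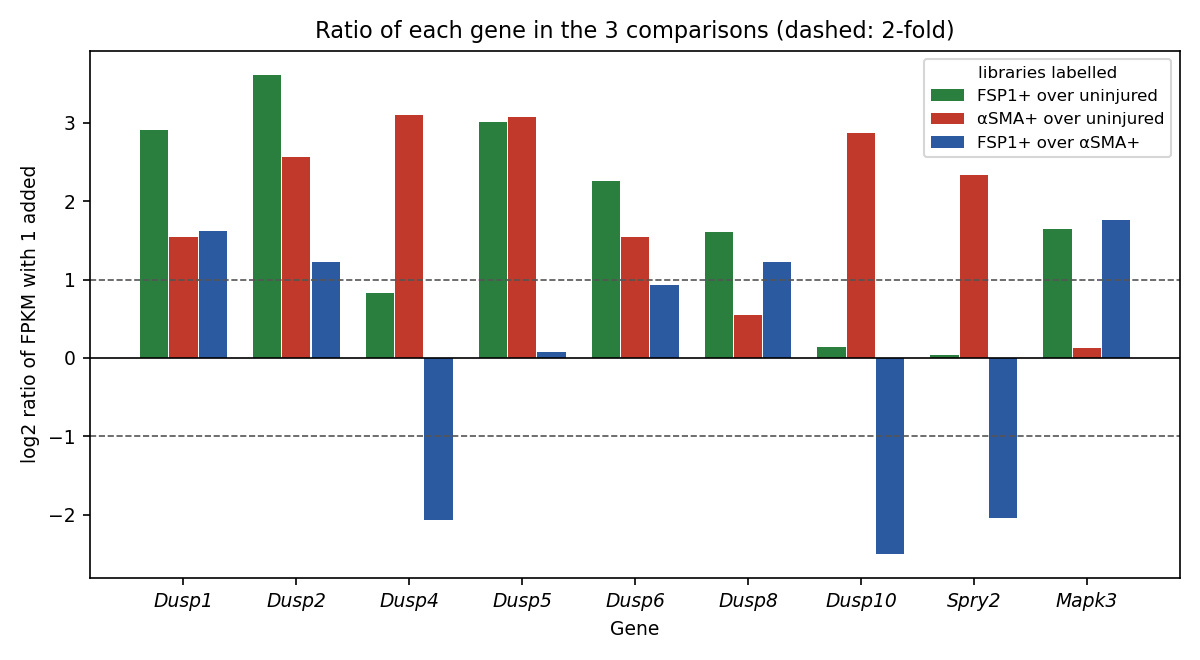
Log2 ratio of FPKM with 1 added for each of the 9 genes, with a bar for each comparison and dashed lines at 2-fold. The bars of FSP1+ over αSMA+ point up for Dusp1, Dusp2, Dusp6, Dusp8 and Mapk3, down to −2.07, −2.50 and −2.04 for Dusp4, Dusp10 and Spry2, and stand at 0.07 for Dusp5.

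Handling and cell make-up differed along with the labels. By the paper's methods, RNA of the FSP1+ and αSMA+ cells was taken fresh after sorting. The uninjured fibroblasts were instead the cells that stuck to plastic over 4 h, after unattached cells had been washed off. Injury and handling therefore cannot be told apart. Of 20 immediate early and dissociation stress genes measured, which include Egr1 of the ERK-induced list below, all 20 were at least 2-fold higher in FSP1+ than in uninjured (median log2 ratio 2.63) and 15 were higher in αSMA+ than in uninjured (median 2.04). Between the infarct libraries 11 were higher in FSP1+ and 1 was lower (median 1.42), the direction of Dusp1 and not that of Dusp4, Dusp10 and Spry2. Of all entries, 14.6% were higher in FSP1+ and 17% in αSMA+ than in uninjured. In FSP1+ over αSMA+, 19.1% were higher and 14.5% lower. Junb, an AP-1 subunit, had an FPKM of 2575 in FSP1+ and 2022 in αSMA+, and Hspa1b, a heat shock gene, had 1664 in FSP1+ and 600.5 in αSMA+. The part of dissociation stress in the levels of the 9 genes was not tested.

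Markers of macrophages and endothelium were mostly higher in both infarct libraries than in uninjured fibroblasts, and most of those of macrophages, endothelium and mural cells were higher in FSP1+ than in αSMA+. Over uninjured, the summed FPKM of macrophage and monocyte markers was 1760 in αSMA+ against 125 in uninjured (15 of 17 at least 2-fold higher), that of endothelial markers was 972 in αSMA+ against 193 in uninjured (13 of 16), and that of cardiomyocyte markers was 267 in αSMA+ against 59.4 in uninjured (6 of 7). Mural markers, of pericytes and smooth muscle, were 305 in αSMA+ against 358 in uninjured. Of all entries, 17% were higher and 7.11% lower in αSMA+ than in uninjured. The shares were 14.6% and 16% for FSP1+ over uninjured, and 19.1% and 14.5% for FSP1+ over αSMA+. Against uninjured, FSP1+ had 9 of 13 fibroblast markers at least 2-fold lower and 1 higher. Their summed FPKM was 9661 in FSP1+ and 19629 in uninjured. In αSMA+, 4 of the 13 were lower and 1 was higher than in uninjured. The summed FPKM of 17 macrophage and monocyte markers was 4267 in FSP1+ and 1485 in αSMA+, with 13 of 17 at least 2-fold higher, and the sum was 4899 in FSP1+ against 144 in uninjured. Lyz2 had an FPKM of 1063 in FSP1+ and 469 in αSMA+, and C1qb had 776 in FSP1+ and 217 in αSMA+. Ptprc, which encodes CD45, had an FPKM of 12.1 in FSP1+ and 9.001 in αSMA+. The summed FPKM of 16 endothelial markers was 4797 in FSP1+ and 820.2 in αSMA+, with 15 of 16 at least 2-fold higher, and 5509.5 in FSP1+ against 223 in uninjured. Pecam1, which encodes CD31, had 157 in FSP1+ and 41.8 in αSMA+, Fabp4 had 3083 in FSP1+ and 376 in αSMA+, and Ly6c1 had 483 in FSP1+ and 116 in αSMA+. The sum of 11 pericyte and smooth muscle markers was 879.8 in FSP1+ and 258 in αSMA+, with 9 of 11 at least 2-fold higher, among them Acta2, and Smtn had 135 in FSP1+ and 56.7 in αSMA+. Of 13 fibroblast markers, 5 were higher and 5 were lower in FSP1+ than in αSMA+, among the higher ones Col1a1 (899.5 in FSP1+ and 266 in αSMA+), Col1a2 (560.1 in FSP1+ and 189 in αSMA+), Col3a1 (1023 in FSP1+ and 328 in αSMA+) and Postn (282 in FSP1+ and 84.8 in αSMA+), beside S100a4. Pdgfra, a receptor gene of resident fibroblasts, had 16.5 in FSP1+ and 323 in αSMA+, while the most abundant, Gsn and Dcn, had 2426 and 851 in FSP1+ and 20694 and 3145 in αSMA+. The sum of the 13 fibroblast markers was 8411 in FSP1+ and 27387 in αSMA+. The sum of 7 cardiomyocyte markers was 110 in FSP1+ and 225 in αSMA+, with 19.2 in FSP1+ and 52.2 in αSMA+ for Myl7 and 54.9 in FSP1+ and 117.6 in αSMA+ for Atp2a2. Sums of fibroblast and cardiomyocyte markers thus had the direction of Dusp4, Dusp10 and Spry2. Those of macrophage, endothelial and mural markers had the direction of Dusp1, Dusp2, Dusp8 and Mapk3. None of the measured markers was at 0 in the infarct libraries, 1 cardiomyocyte marker (Tnnc1) was listed at 0 in uninjured, and the part of these cells in the levels of the 9 genes was not tested. In such bulk libraries, fewer cells of a type and less RNA per cell cannot be told apart.

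Among 15 other Dusp genes with an entry of their own, 9 were measured in each comparison. In FSP1+ over αSMA+, 4 of these 9 reached 2-fold higher and none reached 2-fold lower (median log2 ratio 0.26), against 19.1% and 14.5% of all entries. Dusp3, whose product is a small phosphatase acting on ERK and JNK, had an FPKM of 46.1 in FSP1+ and 17.4 in αSMA+ (log2 ratio 1.35). Dusp7, the closest relative of Dusp6, had 21.4 in FSP1+ and 7.24 in αSMA+ (log2 ratio 1.44), and Dusp22 had 14.0 in FSP1+ and 4.70 in αSMA+ (log2 ratio 1.40). Over uninjured fibroblasts, 2 of the 9 other Dusp genes were higher in FSP1+ (median 0.20). In αSMA+ none was higher and 1 was lower (median 0.10). Of the 7 Dusp genes described, 5 were higher in FSP1+ and 6 in αSMA+. Of all entries, 14.6% were higher and 16% lower in FSP1+, and 17% higher and 7.11% lower in αSMA+. The 7 genes were chosen with earlier results of these data known, so their contrast with the other Dusp genes is not an independent result.

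The pattern of Spry2 was seen in some other inhibitors of the pathway and not in others. Of 8 other feedback inhibitors measured between the infarct libraries, 1 was at least 2-fold higher in FSP1+ and 2 were lower (median log2 ratio 0.28). The shares of all entries were 19.1% higher and 14.5% lower. Spred1, which encodes a Sprouty-related inhibitor of Ras and Raf, had an FPKM of 11.43 in FSP1+ and 40.7 in αSMA+ (log2 ratio −1.75), and Rasa2, which encodes a GTPase activator of Ras, had 3.82 in FSP1+ and 14.9 in αSMA+ (log2 ratio −1.72). Spry1 went the other way from Spry2, with 75.4 in FSP1+ and 28.4 in αSMA+ (log2 ratio 1.38), and it had 86.6 in FSP1+ against 113 in uninjured. Spry4 had 11.9 in FSP1+ and 9.01 in αSMA+ (log2 ratio 0.37), and Pebp1, the most abundant of the list, had 110 in FSP1+ and 84.6 in αSMA+ (log2 ratio 0.38).

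Among the kinases, the ratio of Mapk3 was not shared by the other MAP kinases as a group. Of 9 others measured between the infarct libraries, 2 were at least 2-fold higher in FSP1+ and 1 was lower (median log2 ratio 0.35). In this comparison 19.1% of all entries were higher and 14.5% lower, which stands beside the counts of the lists below too. Mapk6, which encodes the atypical kinase ERK3, had an FPKM of 20.2 in FSP1+ and 100.5 in αSMA+ (log2 ratio −2.26), and Mapk12, which encodes p38γ, had 20.4 in FSP1+ and 7.94 in αSMA+ (log2 ratio 1.26). Of 21 genes upstream of the MAP kinases, 4 were higher and 2 lower in FSP1+ than in αSMA+ (median −0.0026). Map2k3, which encodes an activator of p38, had 69.8 in FSP1+ and 207 in αSMA+ (log2 ratio −1.55), Lamtor3, a scaffold of MEK and ERK, had 40.8 in FSP1+ and 93.0 in αSMA+ (log2 ratio −1.17), and Map3k11, an activator of JNK signaling, had 47.9 in FSP1+ and 9.53 in αSMA+ (log2 ratio 2.21). Grb2, the adaptor between receptors and Ras, had 34.3 in FSP1+ and 32.04 in αSMA+ (log2 ratio 0.09). Of 8 kinases activated by MAP kinases, 3 were higher in FSP1+ and none was lower (median 0.39). Rps6ka4 had 127 in FSP1+ and 10.1 in αSMA+, though its entry also holds a microRNA gene (the entries of Mapkapk2, Spry4 and Rasa2 hold small RNA genes too), and Mknk2, which encodes a kinase of the translation factor eIF4E, had 47.0 in FSP1+ and 9.08 in αSMA+ (log2 ratio 2.25). Mapkapk2, the p38-activated kinase and most abundant of this list, had 160 in FSP1+ and 148 in αSMA+ (log2 ratio 0.12), and Mapkapk3 had 20.2 in FSP1+ and 32.8 in αSMA+ (log2 ratio −0.67).

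Of 11 measured genes known to be induced by ERK, 7 were at least 2-fold higher in FSP1+ than in uninjured and 1 was lower. Their median log2 ratio was 1.79, and the shares of all entries were 14.6% and 16%. In αSMA+ 8 were higher than in uninjured and none was lower (median 2.26), against 17% and 7.11% of all entries. The ETS factor genes Etv1, Etv4 and Etv5 were among those not higher in either, with log2 ratios of −1.41, −0.40 and 0.27 for FSP1+ and −0.38, −0.05 and 0.58 for αSMA+, and Egr3 had 0.23 for FSP1+ and 1.40 for αSMA+. Between the infarct libraries 1 was higher in FSP1+ and 3 were lower (median −0.78), so the median had the sign of Dusp4, Dusp10 and Spry2 and not that of Dusp1, Dusp2 and Dusp6. Myc had an FPKM of 72.9 in FSP1+ and 462 in αSMA+ (log2 ratio −2.65), and Ier3, an early response gene, had 465 in FSP1+ and 1159 in αSMA+ (log2 ratio −1.32). Egr1 had 442 in FSP1+ and 578 in αSMA+ (log2 ratio −0.39), and Phlda1 had 73.7 in FSP1+ and 86.9 in αSMA+ (log2 ratio −0.23).

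**Figure D4:**
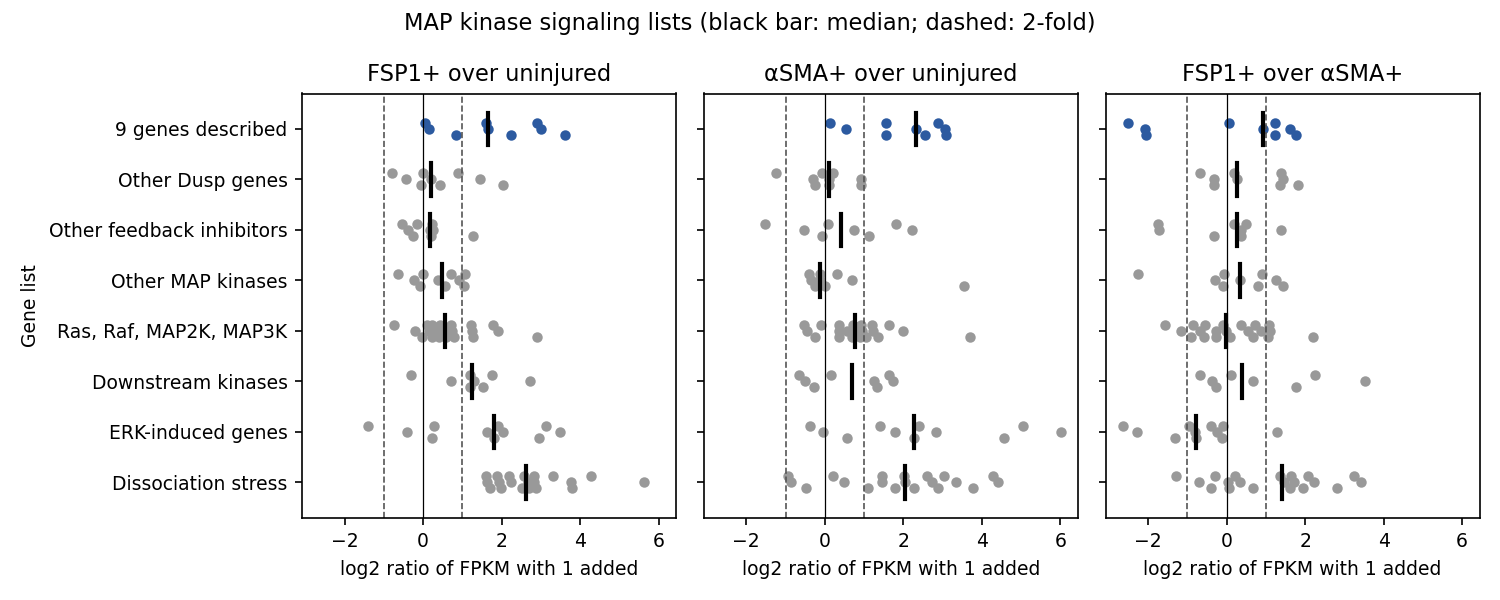
Log2 ratio of FPKM with 1 added for every measured gene of the 9 genes described (blue) and of 7 lists of MAP kinase signaling and stress genes (grey), in a panel for each comparison, with the median of a list as a black bar and 2-fold as dashed lines. In FSP1+ over αSMA+ the 9 genes fall on both sides, from −2.50 to 1.76, and ERK-induced genes have a median of −0.78.

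For each of the 9 genes, the protein coding gene with the most similar ratios was found among 5009 genes that reached 10 FPKM in any library, by the Euclidean distance over the 3 log2 ratios. The nearest gene was Kcna5 for Dusp1 (distance 0.07), Osm for Dusp2 (0.11), Gars for Dusp4 (0.17), Cish for Dusp5 (0.14) and Sult1a1 for Dusp6 (0.04). It was Fam189a2 for Dusp8 (0.06), Ccl11 for Dusp10 (0.08), Nmd3 for Spry2 (0.06) and E2f1 for Mapk3 (0.06). These distances rest on 3 libraries and describe them only. The 9 nearest genes were all different, and none of them is a phosphatase or MAP kinase gene.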

How the data were processed

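The authors mapped the reads to GRCm38 by the Tuxedo Suite and ran Cuffdiff (version not given in the sources used here). They deposited FPKM values in 3 tables of 31930 entries, each scaled for its own pair of libraries, with 0.001 added, which was subtracted. Columns of the authors' log2 fold changes, test statistics and p-values were not used. Symbols came from position, by the annotations GENCODE M21 and RefSeq (GRCm38.p6). A symbol was given to an entry alone at its locus when entry and gene shared 0.8 or more of their union and no second gene shared 0.7. This named 17660 entries, and 8265 at shared loci were left out.

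The measure was the log2 ratio of FPKM with 1 added, over entries that reached 1 FPKM in either library, and 2-fold counted as higher or lower. With no replicates, no test was run. Among entries below 0.15 FPKM in both libraries of a table, the ratio found most often was 1.60 for uninjured over FSP1+ (37 of 390 entries) and 1.50 for αSMA+ over FSP1+ (41 of 611, in a broad peak), a rough guide to what 1 read is worth and so to relative depth. The genes and lists were chosen with earlier results of these data known. From each signaling list were named the genes 2-fold apart in any comparison that reached 10 FPKM, up to 4 by mean FPKM, and the most abundant one. From each marker list, the 2 most abundant were named, with S100a4, Acta2, Ptprc and Pecam1. Pdgfra, Tnnc1, the collagens, Postn, the Etv genes and Egr3 were chosen after their values were seen. Scripts ran in Python 3.11.15 with NumPy 2.4.6, pandas 2.3.3 and matplotlib 3.10.9, and were tested on simulated data.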

Additional observations from a re-analysis of the deposited data

How the results depend on the processing

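The ratios of the 9 genes were taken again under 8 alternatives. Among these were 0.1 or 5 FPKM added, no filter, and a filter of 5 FPKM in either or 1 FPKM in both libraries. The rest were ratios centred on the median, libraries rescaled to the same sum, and ratios through the library that the other tables share. A filter leaves a ratio as it is, and the amount added cannot change its sign. A sign could therefore change only by centring, rescaling or the shared library. Under these, no ratio that passed 2-fold changed its sign. Over all ratios of the 9 genes, below 2-fold or past it, the alternatives gave 211 values, including those that a filter left unchanged. Of the 211, 13 moved by more than 1.5-fold, 5 changed sign and 6 crossed the 2-fold threshold in either direction, for Dusp1, Dusp4, Dusp6 and Dusp8. The median log2 ratio of the 9 genes was 2.25 for FSP1+ over uninjured with a filter of 5 FPKM, which leaves 7 genes, and 1.59 for αSMA+ over uninjured with 5 FPKM added. With a 4-fold threshold, 0 of the 9 were higher in FSP1+ than in αSMA+, and 3 were lower, against 4.03% and 2.98% of all entries. No paired analysis was possible because each group has 1 library, and no replicate could be left out. Read depth is unknown, so levels under about 1 FPKM, such as Dusp5 in uninjured fibroblasts, carry an error that cannot be given.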
